A study of Caenorhabditis elegans with 2 samples.

Results

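The genes described here are 40 Caenorhabditis elegans genes for transcription factors and cofactors that direct neuronal fate, taken by name from a list, out of 19973 protein-coding genes on the nuclear chromosomes. They were asked for in ChIP-seq regions of ZTF-11, a zinc-finger protein of the Myt1 family. Whole animals of the first larval stage, with males and females pooled, came from strain OP236, which carries the unc-119(ed3) mutation and the wgIs236 transgene for ZTF-11 with GFP and FLAG at its C-terminus. There was 1 group of 2 biological replicates, with no second genotype or condition, so every animal carried the mutation and the transgene. Chromatin of all cells was pooled in each sample, so a region bound in few neurons cannot be told apart from one bound weakly in many cells. Whether the tagged protein replaces the native one is not stated in the sources used here.

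Neurons in this animal are made in steps. Proneural factors of the basic helix-loop-helix (bHLH) class commit a precursor to a neuronal fate, and most act as heterodimers with the E protein HLH-2. Terminal selectors are then kept on in a postmitotic neuron, where they activate the genes that give a neuron type its identity, and other factors separate sister subtypes or the left and right members of a pair. Myt1 family proteins are known from vertebrates as factors that act beside proneural bHLH proteins and repress genes that oppose the neuronal fate. By role, the 40 genes fall into 7 proneural bHLH genes, 15 terminal selector genes, 13 genes for subtype or asymmetry choices, and 5 broad factors and cofactors. These roles were assigned from textbook knowledge, and several of the genes act in more than 1 of them.

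Each list on build ce11 held 30000 regions, peaks and background together, for replicate 1, for replicate 2 and for the pooled reads of both replicates. Each region has the authors' signal value, used here to rank regions within its own list. After keeping 1 summit per 200 bp, 29846 nuclear regions of the pooled list had a rank. Signal ran from 12.3 to 127 in the pooled list, with a median of 16.1, and the region ranked 1000 had 27.4. The medians were 9.89 in replicate 1 and 9.18 in replicate 2, and the regions ranked 1000 had 17.6 and 16.3, and no scaling between lists was stated. Read depth is unknown, since the lists hold no read counts.

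Summits fell near the starts of neuronal fate genes about as often as near the starts of other genes. A promoter window starts 1000 bp before an annotated transcript start and ends 500 bp after it, and a gene with several starts has one for each. In C. elegans many annotated starts are trans-splice sites, so the true site of initiation can lie further upstream. In the pooled list 18 of the 40 genes, or 45%, had a listed summit in the window, with an exact binomial (Clopper-Pearson) 95% interval from 29.3% to 61.5%, and 45.2% of all protein-coding genes had one. In replicate 1 the count was 18 of 40, against 44.8% of all genes, and in replicate 2 it was 21 of 40, or 52.5%, against 45.7%. Among the genes with a pooled region, the median best signal was 18.2 for the 18 members and 17.01 for all genes, and 11 of the 18 members lay above that value. The members' shares stood near the background in all 3 lists, and the interval of each included it. No test was made, because the design has no contrast and the genes were taken by name with earlier results known.

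**Figure D1:**
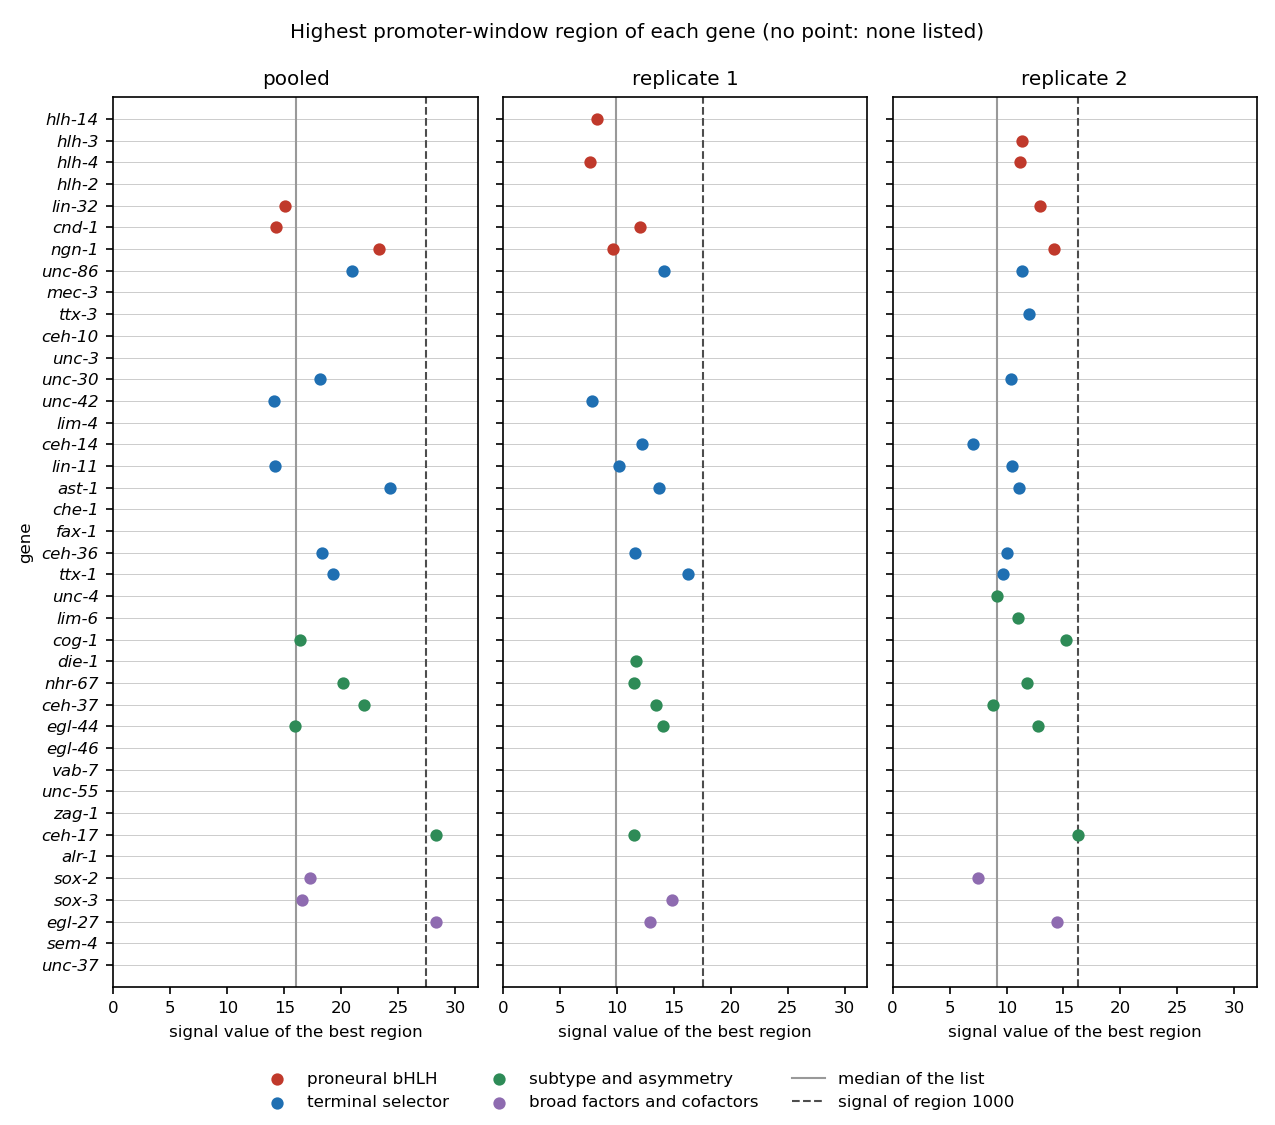
Signal value of the highest region in the promoter window of each of the 40 genes (rows, coloured by role) in the pooled list and in each replicate; a missing point means that no summit was listed, the grey line is the list's median and the dashed line the signal of the region ranked 1000. In the pooled list ceh-17 and egl-27 lie past the dashed line, at 28.3, and in replicate 1 no gene does.

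The sequences around 5 summits are shown here. Those of egl-27, ast-1 and ngn-1 belong to the highest promoter-window regions of the genes whose sequence is given, ttx-1 has the most copies of a Myt1-type word among the members' promoter-window summits, and cnd-1 had a region of high pooled signal inside the gene, found in its wide window of the gene body and 5 kb to either side. Each run has 101 bases centred on the summit, on the strand of the gene and 5′ to 3′, from the RefSeq WBcel235 assembly, the sequence of ce11. Capitals mark AAGTT, the word known as the core of Myt1 family motifs, or AACTT, the same word on the other strand. The first 4 lie in promoter windows and the last lies further from the start.
egl-27, chrII:6839511-6839611, plus strand: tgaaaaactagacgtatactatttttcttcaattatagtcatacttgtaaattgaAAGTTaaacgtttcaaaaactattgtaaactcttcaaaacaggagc
ast-1, chrII:4136042-4136142, minus strand: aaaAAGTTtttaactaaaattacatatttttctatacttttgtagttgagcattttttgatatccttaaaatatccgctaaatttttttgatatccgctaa
ngn-1, chrIV:2627970-2628070, minus strand: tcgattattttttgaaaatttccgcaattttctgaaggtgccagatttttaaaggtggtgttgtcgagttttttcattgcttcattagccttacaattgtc
ttx-1, chrV:20060346-20060446, minus strand: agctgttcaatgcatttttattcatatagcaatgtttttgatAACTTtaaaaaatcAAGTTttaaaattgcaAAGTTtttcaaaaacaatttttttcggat
cnd-1, chrIII:5241311-5241411, minus strand: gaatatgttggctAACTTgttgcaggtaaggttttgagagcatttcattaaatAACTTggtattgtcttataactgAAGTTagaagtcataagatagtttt

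The ngn-1 window holds no copy of the word, and the windows of egl-27 and ast-1 hold 1 each, while ttx-1 and cnd-1 hold 3 each. A match is a description of letters and not of binding.

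Only 2 of the 40 genes, egl-27 and ceh-17, had a promoter-window region among the 1000 highest of the pooled list, or 5%, against 2.90% of all genes. The region of egl-27 (WBGene00001194, a gene for an MTA-type protein of chromatin complexes) lay at chrII:6839386-6839735, in an intron and 625 bp upstream of a start. Its signal was 28.3 (rank 801) in the pooled list, with 12.4 (rank 6764) in replicate 1 and 14.4 (rank 2119) in replicate 2. The region was thus listed by both replicates but was among the 1000 highest of neither. The region of ceh-17 (WBGene00000440), which encodes a Phox2-type homeodomain protein, lay at chrI:4570266-4570615, outside protein-coding genes and 414 bp upstream of the start. It had 28.3 and rank 800 in the pooled list, 11.5 and rank 9172 in replicate 1, and 16.3 and rank 1003 in replicate 2. At a GC content of 57.4% around its summit, against a median of 29.7% over the members' 28 pooled promoter-window summits, the ceh-17 site was the most GC-rich of them. The deposited score of a region gave another order for both, since it was below 0 at each. It put ceh-17 at rank 17400 and egl-27 at rank 17591. In the replicate lists taken alone, 0 of the 40 genes reached the 1000 highest, against 2.49% of all genes in replicate 1 and 2.74% in replicate 2.

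None of the 40 genes was a target in the consensus of 88 peaks. The count was 0 of 40 in the promoter window, against 0.411% of all genes, and 0 of 40 in the wide window, against 1.39%. A count of 0 of 40 allows a share of up to 7.5%, which covers counting error only and lies above both background shares. The lowest consensus signal was 40.5, above the 31.7 of the highest region in any member's wide window. The consensus summit nearest to a member lay 26550 bp from hlh-4, and 2 members had a consensus summit within 50 kb.

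Of the proneural bHLH genes, ngn-1 alone had a promoter-window region in all 3 lists. The gene ngn-1 (WBGene00003595) encodes the neurogenin. Its region at chrIV:2627845-2628194, in an intron 251 bp downstream of the start, had a signal of 23.3 and rank 2805 in the pooled list. The matching summits had 9.67 and rank 15910 in replicate 1, and 14.1 and rank 2369 in replicate 2. The replicates therefore placed this site far apart in rank. The Atonal gene lin-32 (WBGene00003018), needed for touch and ray neurons, had 2 pooled regions, 454 bp and 251 bp upstream of the start, at 15.1 and 14.5, ranks 18156 and 20233. Replicate 2 had 1 region there at 12.9, rank 3760, and replicate 1 had none. The NeuroD gene cnd-1 (WBGene00000561) had a pooled region at 14.2, rank 21204, in the UTR 39 bp downstream of the start, which replicate 1 listed at 12.0, rank 7642, and replicate 2 did not list. All 3 of these lin-32 and cnd-1 regions lay below the median signal of the pooled list.

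The Achaete-Scute genes had no pooled promoter-window region. For hlh-4 (WBGene00001951), known for the identity of the ADL sensory neuron, replicate 1 listed a region at 7.61, rank 28400, and replicate 2 one at 11.2, rank 7493, at 785 bp and 447 bp upstream of the nearest start. These summits were not within 200 bp of each other, and both lay in an intron of T05G5.1. For hlh-14 (WBGene00001958), which acts in the lineage of the PVQ and HSN neurons, only replicate 1 listed a region, at 8.26 and rank 23883. For hlh-3 (WBGene00001950), needed for HSN development, only replicate 2 did, at 11.4 and rank 6902, in the coding exon 60 bp downstream of the start. The E protein gene hlh-2 (WBGene00001949) had no promoter-window region in any of the 3 lists.

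Among the 15 terminal selector genes, 5 had promoter-window regions in all 3 lists and 6 had none in any list. These shares were 33.3% and 40%, against 22.0% and 32.5% of all genes, and the gaps were not tested. The highest pooled signal belonged to ast-1 (WBGene00020368), the ETS factor of dopaminergic neurons, at chrII:4135917-4136266, outside genes and 733 bp upstream of the start. It had 24.3 and rank 2219 in the pooled list, 13.7 and rank 4202 in replicate 1, and 11.1 and rank 7798 in replicate 2. The POU gene unc-86 (WBGene00006818), a selector of many neuron types, had its best pooled region at chrIII:8215342-8215691, in an intron, at 21.0 and rank 4985. Replicate 1 listed it at 14.1, rank 3627, and replicate 2 at 10.8, rank 8527, beside a second region there at 11.4, 400 bp upstream of a start. Both sites were found again in each replicate, but not among the 3000 highest of either.

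The Otx genes ttx-1 (WBGene00006652), of the AFD thermosensory neuron, and ceh-36 (WBGene00000457), of the AWC and ASE neurons, were also in all 3 lists. The ttx-1 windows held 3 pooled regions, at 19.3, 18.5 and 16.3, of which the first, at rank 7339, had 16.3 and rank 1676 in replicate 1 and no match in replicate 2, while the second was matched at 7.93 and at 9.66. The ceh-36 region, 300 bp upstream of the start, had 18.3 and rank 9155 in the pooled list, 11.6 and rank 8790 in replicate 1, and 10.03 and rank 11218 in replicate 2. The LIM gene lin-11 (WBGene00003000) had a pooled region at 14.2, rank 21399, which replicate 2 matched at 10.4, while the region of replicate 1, at 10.2, lay 676 bp upstream of the start and did not match it. Being listed by all 3 lists thus did not always mean the same site.

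The other terminal selector genes had weaker or unmatched regions. For unc-30 (WBGene00006766), the Pitx gene of GABAergic motor neurons, the pooled region in an intron 379 bp downstream of a start had 18.2 and rank 9480. A summit of replicate 2 within 200 bp had 15.4 and rank 1407 but fell outside the window. Inside the window replicate 2 listed another region, 603 bp upstream of a start, at 10.4 and rank 9784, while replicate 1 had none. For unc-42, a paired-like homeobox gene, the pooled region at 14.1 had no match in either replicate. Replicate 1 listed a region elsewhere in the unc-42 windows, at 7.79 and rank 27038. For the LIM gene ceh-14, replicate 1 listed 12.2 and replicate 2 listed 7.05, and the pooled list had no region. For ttx-3, the LIM gene of the AIY interneuron, only replicate 2 had a region, at 11.9. No list had a promoter-window region for mec-3 (touch receptor neurons), ceh-10 (AIY), unc-3 (the EBF factor of cholinergic motor neurons), lim-4, che-1 (ASE) or fax-1 (an interneuron nuclear receptor).

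Proneural bHLH genes and terminal selector genes were listed at like shares in the promoter window. The order of these shares changed with the length taken upstream. A pooled promoter-window region was found for 3 of 7 proneural genes, or 42.9% (exact 95% interval 9.90% to 81.6%), and for 7 of 15 terminal selector genes, or 46.7% (21.3% to 73.4%). The counts were 4 of 7 and 7 of 15 in replicate 1, and 4 of 7 and 8 of 15 in replicate 2. With 7 genes, 1 gene is 14.3% of the class, more than the gap between the classes, so the number of genes limits this comparison. With 2000 bp upstream in place of 1000 bp, the pooled counts were 3 of 7 proneural genes, or 42.9%, and 11 of 15 terminal selector genes, or 73.3%, against 59.3% of all genes. With 500 bp upstream the order was the other one, at 3 of 7, or 42.9%, and 5 of 15, or 33.3%, against 34.2%. In the wide window, a pooled region among the 1000 highest was found for 2 of 7 proneural genes (28.6%) and 1 of 15 terminal selector genes (6.67%). The share of all genes was 11.9%. By replicate 1 the counts were 3 of 7 (42.9%) and 1 of 15 (6.67%), against 11.3% of all genes. By replicate 2 they were 1 of 7 (14.3%) and 2 of 15 (13.3%), against 12.0%, so the gap between the classes was not seen there. The pooled regions near lin-32 and ttx-1 had the start of another gene as the nearest. The best pooled promoter-window signals ran from 14.2 to 23.3 over the 3 proneural genes, with a median of 15.1, and from 14.1 to 24.3 over the 7 terminal selector genes, with a median of 18.3. The ranges overlapped over nearly their whole width. A region in all 3 lists was found for 1 of 7 proneural genes and for 5 of 15 terminal selector genes, against 22.0% of all genes. The median length was 1583 bp for the proneural genes and 4858 bp for the terminal selector genes, but the median promoter windows, at 1501 bp and 1540 bp, were alike.

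**Figure D2:**
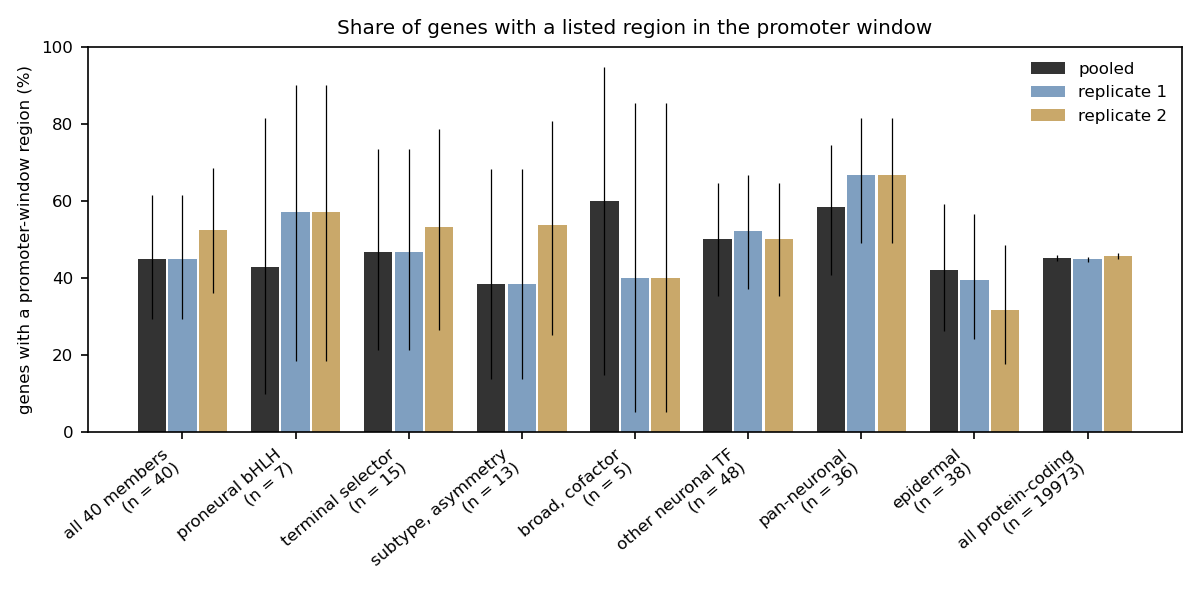
Share of genes (vertical axis, %) with at least 1 summit in the promoter window, for the 40 neuronal fate genes, their 4 role classes, 3 comparison lists and all protein-coding genes, in the pooled list and each replicate; black lines are exact binomial 95% intervals. The members stand at 45% in the pooled list beside 45.2% of all genes, and the intervals of the proneural and terminal selector classes overlap.

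Among the 13 subtype and asymmetry genes, ceh-17 was followed by ceh-37 and nhr-67. The Otx gene ceh-37 (WBGene00000458), of the AWB olfactory neuron, had 22.0 and rank 3913 in the pooled list at chrX:14200259-14200608, an intron 703 bp upstream of a start that also holds the non-coding gene C37E2.9. Replicate 1 listed it at 13.5, rank 4574, and replicate 2 at 8.83, rank 16681. The Tailless-type receptor gene nhr-67 (WBGene00003657) had 20.2 and rank 6036 at chrIV:11168657-11169006, 916 bp upstream of the start, with 9.60 in replicate 1 and 11.8 in replicate 2. Both sites were found again in each replicate. The Nkx6 gene cog-1, which acts in the left-right choice of the ASE neurons, had 16.4 in the pooled list, rank 13964, and 15.2 and rank 1542 in replicate 2, with no region in replicate 1. The TEAD gene egl-44 had 2 pooled regions, at 16.0 and 14.7, and replicate 2 matched the first while replicate 1 matched the second. For unc-4 (9.20) and lim-6 (11.0) only replicate 2 had a region, and for die-1 (11.7) only replicate 1. No list had a promoter-window region for egl-46 (the zinc-finger partner of egl-44), vab-7 (Even-skipped), unc-55 (a COUP-type receptor), zag-1 (ZEB) or alr-1 (Aristaless).

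Among the broad factors and cofactors, egl-27 held most of the regions. It has 14 annotated starts, so its windows cover 8701 bp, against 1501 bp for a gene with 1 start, and they held 6 pooled regions with signals from 16.9 to 28.3. Of these, 3 were matched in both replicates. The SoxB genes had 1 pooled region each. That of sox-2 had 17.3 in the UTR and 7.46 in replicate 2, rank 25622, with none in replicate 1. That of sox-3, 898 bp upstream of a start, had 16.5 in the pooled list and 14.8 and rank 2726 in replicate 1, with none in replicate 2. The Spalt gene sem-4 and unc-37, the Groucho co-repressor, had no promoter-window region in any list. Over all roles, 14 of the 40 genes, or 35%, had no promoter-window region in any of the 3 lists, against 32.5% of all genes.

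**Figure D3:**
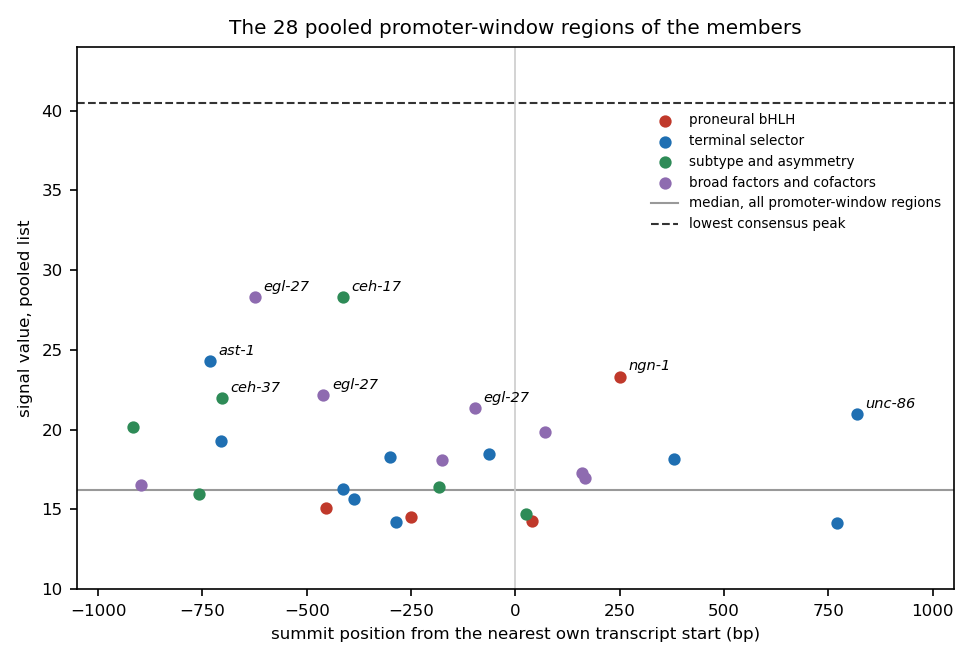
The 28 pooled regions in promoter windows of the members, by summit position from the nearest own transcript start (horizontal axis, bp, negative is upstream) and signal (vertical axis); the grey line is the median of all promoter-window regions, 16.2, and the dashed line the lowest consensus signal, 40.5. A summit past 500 bp downstream of its nearest start lies in the upstream window of another start, and every point lies below the dashed line.

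By location, of the members' 28 pooled promoter-window summits, 14 were in introns, or 50%, 10 outside protein-coding genes (35.7%), 2 in coding exons and 2 in UTRs. Over all 10451 promoter-window regions, 32.2% were in introns and 43.3% outside protein-coding genes. The egl-27 windows alone gave 5 of the intronic summits, and without egl-27 the members had 9 of 22 in introns, or 40.9%. The difference from all genes was not tested. None of the 28 lay in the promoter window of another protein-coding gene as well, while 86.5% of all promoter-window regions belonged to 1 gene only. Upstream of the nearest own start lay 19 of the 28, and 9 lay downstream. The window itself takes 1000 bp upstream and only 500 bp downstream, and no share over all promoter-window regions is given beside this count. The median signal was 18.1 over the 28 regions and 16.2 over all promoter-window regions.

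Pooled regions found in both replicates were mostly those of higher signal, among the members and among all genes alike. Of the 28 pooled regions, 11, at 9 genes, had a summit within 200 bp in each replicate list, or 39.3%, against 25.9% of all promoter-window regions. Matching within 100 bp gave 25%, against 17.2%, and matching within 500 bp gave 53.6%, against 36.9%. All 11 were among the 20 member regions above 16.2, the median signal of all promoter-window regions, where the shares were 55% of member regions and 44.7% of all. Of the 8 member regions below it, 0 were matched in both, against 7.19% of all, and with 8 regions a count of 0 cannot be told apart from that share. The pooled signal comes from the reads of both replicates, so it is not independent of this matching. Of the 28 regions, 6 were matched in replicate 1 only, 10 in replicate 2 only and 1 in neither. Over all 10451 promoter-window regions these counts were 3545, 3138 and 1058. Over genes, 13 of 40, or 32.5%, had a promoter-window region in both replicates at any position, against 25.2% of all genes. Over these 13 genes the best signals of the replicates had a Spearman rho of -0.25, given as a description across genes that share each library. It compares the best region of a gene wherever it lay, at hlh-4 and lin-11 for example at different sites. No value over all genes is given beside it.

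In the wide window every member had at least 1 listed region, as did 94.6% of all genes (pooled list), 94.3% (replicate 1) and 95.6% (replicate 2). The 40 windows held 180 pooled regions over 598.9 kb, or 3.01 per 10 kb, against 2.89 per 10 kb over all protein-coding genes. The members' counts ran from 1 to 11, with the 11 at ttx-1 in a window of 20458 bp. Among the 1000 highest regions were those of 5 of 40 genes for the pooled list, or 12.5%, against 11.9% of all genes. For replicate 1 it was 4 of 40, against 11.3%, and for replicate 2 also 4 of 40, against 12.0%. These shares stood near the background, and the 5 pooled genes were lin-32, cnd-1, ttx-1, ceh-17 and egl-27. Among the 5000 highest the members' shares lay above it, at 60% against 43.2% in the pooled list. They were 47.5% against 42.3% in replicate 1 and 60% against 45.6% in replicate 2. The median gene length was 4500 bp for members and 2027 bp for all genes, so members had longer wide windows, and the gap was not tested.

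**Figure D4:**
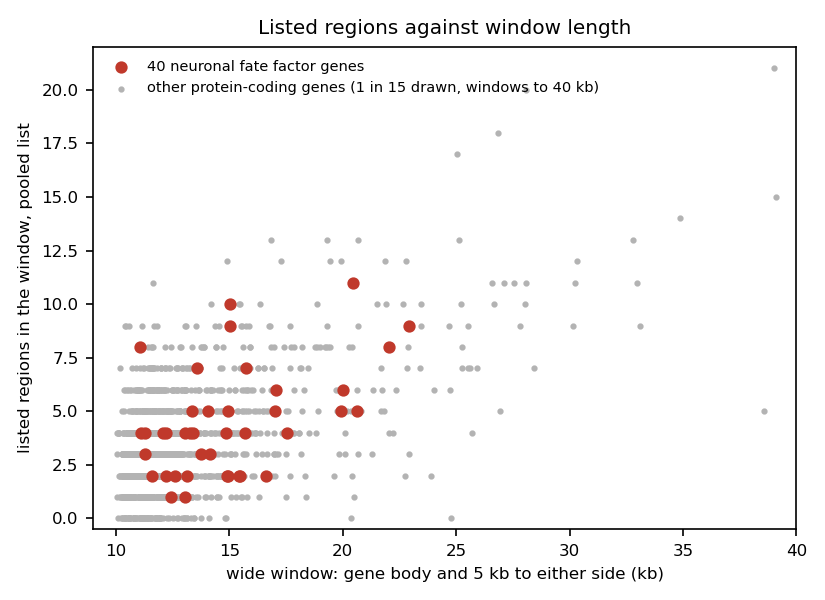
Listed regions of the pooled list in the wide window (vertical axis, count) against window length (horizontal axis, kb) for the 40 neuronal fate genes and for 1 in 15 of the other protein-coding genes with windows up to 40 kb. The members, with 1 to 11 regions, lie within the cloud of the other genes.

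The wide-window regions of highest signal did not always have the member as the nearest gene. The best pooled region near lin-32 had 31.7 and rank 365, with 12.6 and rank 6186 in replicate 1 and 16.3 and rank 1000 in replicate 2. Its summit was closer to the start of a neighbouring gene than to that of lin-32. The best region near ttx-1, at chrV:20049761-20050110, had 28.5 and rank 767, with 10.8 in replicate 1 and 18.0 and rank 479 in replicate 2, and its summit was in an intron of srh-233. The cnd-1 region, in contrast, was in an intron of cnd-1 itself, 3278 bp downstream of its start, at chrIII:5241186-5241535. It had 29.0 and rank 666 in the pooled list, 18.2 and rank 797 in replicate 1, and 8.06 and rank 21294 in replicate 2. For 21 of the 40 genes the best pooled wide-window region had the gene's own start as the nearest protein-coding start, and for 9 it lay in the gene's promoter window. No shares over all genes are given beside these 2 counts.

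Of the 1000 highest regions of replicate 1 over the whole genome, 41.1% had a summit of replicate 2 within 200 bp, and 43.1% of those of replicate 2 had one of replicate 1. Replicate 1 had regions among its 1000 highest near lin-32 (21.3, rank 261, in an intron of hex-1), hlh-3 (18.9), cnd-1 (18.2) and fax-1 (21.5, rank 250, 3916 bp upstream). Of these 4, only that of cnd-1 had a summit of replicate 2 within 200 bp. Replicate 2 had regions among its 1000 highest near lin-32 (16.3), mec-3 (17.6, rank 577, 2137 bp upstream), ttx-1 (18.0) and nhr-67 (17.8, rank 522, in a coding exon of nhr-67). Of these, the regions near lin-32 and ttx-1 had a summit of replicate 1 within 200 bp, and those near mec-3 and nhr-67 had none. Pooled summits within 200 bp had 17.7 and rank 10609 near mec-3, and 12.7 and rank 28312 near nhr-67. For the regions of replicate 1 they had 17.3 and rank 11508 near fax-1, and 28.9 and rank 691 near lin-32. The hlh-3 region had no pooled match. The mec-3 summit lay in the promoter window of ugt-43, 584 bp from its start. Nearest to the summits of replicate 1 near fax-1 and hlh-3 were the starts of F28B4.1, at 1813 bp, and C07H4.1, at 2608 bp. The gene lin-32 was named by both replicates, but at summits on opposite sides of the gene, and its region in replicate 2 stood at rank 1000 itself, while the promoter-window region of ceh-17 stood just outside, at rank 1003.

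AAGTT or its complement lay within 50 bp of 14 of the 28 promoter-window summits of the members, or 50%, and of 37.7% of the 10451 promoter-window summits of all genes. The word was searched on both strands, and a copy on either counted. These 14 summits belonged to 10 genes, with 1 to 3 copies at a summit. The members' windows were richer in A and T, with a median GC content of 29.7% against 31.7%. Among summits with a GC content up to 29.7%, the shares were 9 of 15 member summits, or 60%, and 43.9% of all summits. The 28 summits are not independent, since 6 belong to egl-27 and 3 to ttx-1.

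The members' share was also near the background within chromosomes and start numbers. On chromosome X lay 12 of the 40 genes, or 30%, against 13.7% of all protein-coding genes. A pooled promoter-window region was listed for 5 of 12 members on X, or 41.7%, against 42.5% of all genes on X, and for 13 of 28 members on autosomes, or 46.4%, against 45.6%. Among genes with 1 annotated start, 8 of 21 members (38.1%) and 39.9% of all genes had one. Among genes with several starts, 10 of 19 members (52.6%) and 59.1% of all genes had one.

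Related gene lists gave pooled shares on both sides of the members' 45%. A promoter-window region was listed for 24 of 48 other neuronal transcription factor genes, or 50%, for 21 of 36 pan-neuronal and synaptic genes, or 58.3%, and for 16 of 38 epidermal genes, or 42.1%. Pan-neuronal genes had a median length of 7518 bp, against 4500 bp for the members and 2027 bp for all genes, while their median promoter window, at 1541.5 bp, was close to the 1501 bp of the members and of all genes. Regions in all 3 lists were found for 11 of the 40 members (27.5%), 12 of 48 other neuronal factors (25%), 16 of 36 pan-neuronal genes (44.4%), 5 of 38 epidermal genes (13.2%) and 22.0% of all genes.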

How the data were processed

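Per the deposited README texts, the authors made narrowPeak lists of peaks and background on ce11 from each replicate's alignment, or from both together, with 1 control alignment, as input for IDR, and a thresholded consensus from these lists. The aligner, caller and IDR threshold are not given in the sources used here. Column 7 is the authors' deposited signal value per region. Column 9 is the deposited score, nominally a -log10 q value yet below 0 at most pooled regions, and was used only as an alternative ranking. Read depth is unknown.

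Summits were column 2 plus column 10 plus 1. Regions outside the nuclear chromosomes were left out, regions were ranked by signal within a list, and summits within 200 bp of a higher one were merged into it. Genes and starts came from Ensembl release 115 (WBcel235, the ce11 sequence), and 0 nuclear regions ran past a chromosome end. Coordinates are ce11, counted from 1. Promoter windows started 1000 bp before each transcript start and ended 500 bp after it, and wide windows took the gene body and 5 kb to either side. Summits in different lists were matched within 200 bp. All 40 members matched by symbol, and 1 of the comparison genes did not. Intervals are exact binomial and cover counting of genes only. Python 3.11.15 with pandas 2.3.3 and scipy 1.17.1 was used, and the window, ranking and merging steps were checked on made-up regions with known places. Members and lists were chosen with earlier results of these data known. Every member is named. Values in all lists are given for members with a promoter-window region among the 1000 highest of a list. They are also given for members of highest pooled signal and, in the promoter window, for the proneural genes. The ce10 lists were not used here.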

Additional observations from a re-analysis of the deposited data

How the results depend on the processing

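Of 41 alternative values, 24 stayed within 1.5 times the count, or within the spread, of the reported one and 17 did not. The count of members with any promoter-window region did not leave 1.5 times under any alternative run: it was 13 with 500 bp upstream (34.2% of all genes), 21 with any overlap (50.5%), 24 with 2000 bp upstream (59.3%) and 18 to 21 without a replicate (44.8% and 45.7%). The 2 members among the 1000 highest became 1 with 500 bp upstream, against 2.15% of all genes, 0 in the 500 highest (1.68%), 6 in the 5000 highest (10.6%), 0 when ranked by score (2.78%), and 0 to 0 without a replicate. The 5 members with a wide-window region among the 1000 highest became 1 in the 500 highest (6.42%) and 24, or 60% of members, in the 5000 highest (43.2% of all genes). They became 3 when ranked by score (12.3%) and 3 with 2 kb to either side (7.31%). The 7 terminal selector genes became 5 with 500 bp upstream and 11 with 2000 bp upstream, and the proneural count was 3 as before with each. Terminal selector and subtype genes together gave 12 of 28, or 42.9%, beside 46.7% of the terminal selector genes alone (all genes 45.2%). This value is among the 17 by its raw count, which came from a larger set of genes, so it says nothing of a changed share. Member regions per 10 kb were 2.90 with 2 kb to either side, against 2.97 for all genes, a turn in the order of members and all genes, and 2.91 to 3.02 without a replicate. The AAGTT share was 28.6% within 25 bp (all 21.1%), 67.9% within 100 bp (all 60.3%), and 40.7% to 50% without a replicate. Larger windows and longer lists hold more regions by construction. No paired analysis was possible because both samples belong to a single group. Apart from that construction, what moved these values was not tested.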

Other observations

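In the list of 48 other neuronal transcription factor genes, 0 had a promoter-window region among the 1000 highest of the pooled list, against 2.90% of all genes. The counts were 3, or 6.25%, for replicate 1 (all genes 2.49%) and 2, or 4.17%, for replicate 2 (all genes 2.74%). Such small counts do not set this list apart from all genes. The genes named next were picked with their values in view. Each value is that of the gene's best promoter-window region in that list. Summits were not matched between lists here, so the values of a gene need not belong to the same site. The homeodomain gene unc-62 had 26.1 and rank 1416 in the pooled list, 17.8 and rank 904 in replicate 1, and 16.7 and rank 831 in replicate 2. The gene ztf-11 itself had 17.5 and rank 10916 in the pooled list, 21.1 and rank 277 in replicate 1, and 18.3 and rank 421 in replicate 2. The strain carries ztf-11 also as a transgene, and reads of the transgene and of the native gene cannot be told apart here. The Hox gene mab-5 had 17.9 and rank 881 in replicate 1, 8.14 in replicate 2 and 12.8 in the pooled list.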
